A study of Mus musculus with 52 samples.

Results

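Rhag, Rhd, Ermap, Kel, Cldn13, Slc4a1, Ank1 and Add2 encode proteins of the red cell membrane, among them carriers of the Rh, Scianna, Kell and Diego blood groups. They were taken by symbol from a table of 49466 genes, and all 8 were found there. Their transcripts were counted in 52 single cells born from mouse BFU-E (burst-forming unit-erythroid), early progenitors committed to the red cell lineage. The founders came from fetal livers of C57/Bl6J embryos at embryonic day 14.5. Cells carrying Ter119, CD3e, CD45R, Ly-6G, CD11b, Sca-1, CD16/32 or CD41 had been depleted, and the rest were sorted on CD117, CD71 and CD24. Each founder was placed alone in a well for 16 hours, either untreated or with 100 nM dexamethasone, a synthetic glucocorticoid. Founders that divided once gave a pair of daughters, each sequenced on its own. There were 13 untreated and 13 dexamethasone pairs. No genetic change is labelled in either group. Animals are not named in the labels, so each p-value reflects variation among founders and wells that may share an embryo.

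The red cell membrane is a lipid bilayer held to a spectrin and actin skeleton through protein complexes. Band 3 (Slc4a1), the anion exchanger that carries the Diego blood group, is tied to spectrin by ankyrin (Ank1), while beta-adducin (Add2) caps actin and joins it to spectrin. The Rh proteins sit in the same complexes: Rhag, an ammonium channel relative, is needed for Rhd to reach the cell surface. Kel is a zinc endopeptidase linked by a disulphide bond to Xk. Ermap is an immunoglobulin superfamily protein of erythroid cells, and Cldn13 is a rodent claudin known from erythroid precursors. GATA1 and KLF1 are the transcription factors best known for driving such genes during red cell formation.

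The stretch before the transcription start was available for 5 of the 8 genes, Rhag, Rhd, Ermap, Kel and Add2, in RefSeq on GRCm38.p6. Those 5 sequences are shown because the genes were found largely in the same cells as Gata1, whose protein is known to bind GATA motifs. Each is the 250 bases before the RefSeq start, written 5′ to 3′ on the strand of the gene. Capitals mark AGATAA or TGATAA on either strand (read as TTATCT or TTATCA on the minus strand) and, in Add2, CCNCNCCC on the minus strand.
Rhag promoter, chr17:40810899-40811148, plus strand: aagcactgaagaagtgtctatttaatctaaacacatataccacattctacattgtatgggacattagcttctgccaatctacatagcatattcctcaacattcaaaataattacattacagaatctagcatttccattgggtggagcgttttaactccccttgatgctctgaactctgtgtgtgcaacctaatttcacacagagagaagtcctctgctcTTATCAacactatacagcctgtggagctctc
Rhd promoter, chr4:134864286-134864535, plus strand: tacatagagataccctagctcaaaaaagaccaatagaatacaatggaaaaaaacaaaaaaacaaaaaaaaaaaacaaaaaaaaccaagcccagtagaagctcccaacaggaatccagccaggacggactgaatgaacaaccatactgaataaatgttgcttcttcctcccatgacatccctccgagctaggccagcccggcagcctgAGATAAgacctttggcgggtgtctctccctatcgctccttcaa
Ermap promoter, chr4:119189996-119190245, minus strand: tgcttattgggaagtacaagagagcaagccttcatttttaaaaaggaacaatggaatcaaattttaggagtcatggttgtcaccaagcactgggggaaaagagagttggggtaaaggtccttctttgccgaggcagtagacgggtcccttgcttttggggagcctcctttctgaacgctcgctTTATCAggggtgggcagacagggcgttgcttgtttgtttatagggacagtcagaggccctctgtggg
Kel promoter, chr6:41704326-41704575, minus strand: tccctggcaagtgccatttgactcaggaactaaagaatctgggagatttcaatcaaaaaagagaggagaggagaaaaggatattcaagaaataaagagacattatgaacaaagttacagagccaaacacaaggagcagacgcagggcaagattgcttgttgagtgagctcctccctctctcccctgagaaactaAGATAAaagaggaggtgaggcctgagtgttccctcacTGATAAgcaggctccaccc
Add2 promoter, chr6:86028431-86028680, plus strand: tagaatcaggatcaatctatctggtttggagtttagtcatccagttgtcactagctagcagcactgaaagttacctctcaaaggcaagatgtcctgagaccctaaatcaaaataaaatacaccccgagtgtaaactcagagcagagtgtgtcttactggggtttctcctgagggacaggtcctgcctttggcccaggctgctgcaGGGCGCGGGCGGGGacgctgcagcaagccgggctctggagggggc
AGATAA or TGATAA on either strand was present in 4 of these 5 promoters and in 16.6% of the 32851 promoters of that length in the table. In Rhag it ended 26 bases before the start, in Rhd 38 bases and in Ermap 62 bases before it. Kel held both, AGATAA ending 51 bases and TGATAA ending 14 bases before the start. Add2 held neither, but it held 2 overlapping matches to CCNCNCCC, a KLF-type motif present in 45.9% of all promoters. A match describes these letters and was not tested as a binding site.

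Counts per library ranged from 0 to 5606500. The 48 libraries of at least 100000 counts (22 untreated, 26 dexamethasone) were used for descriptions of single cells, and 23 pairs had both daughters among them. CPM is the count of a gene scaled to the total of its library, and a gene was called found at 10 CPM or more. Gata1 was found in 39 of the 48 libraries. At least 3 of 15 granulocyte and monocyte markers were found in 12 libraries, 5 untreated and 7 with dexamethasone, although the depletion antibodies included Ly-6G and CD11b. These 12 came from 7 pairs. Mpo, myeloperoxidase, reached 23921 CPM there, while Cebpe, S100a9, Gfi1 and Fcnb were at 0 in all 48 libraries. In the 11 libraries where the 15 markers summed to over 1000 CPM, the sum was 5694 to 41463 CPM, against at most 607 CPM in the rest. Rhd, Ermap, Cldn13, Slc4a1, Ank1 and Add2 were found in 0 of these 11, Rhag in 2 and Kel in 3. The main counts and tests are given with and without the 12 libraries or their 7 pairs. Below, with or without these markers refers to at least 3 of them found in a library. Libraries below that number could still hold some. Mpo was found in 27 libraries, among them both daughters of dexamethasone pair 9, at 556 and 451 CPM.

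The 8 genes were found in unequal numbers of cells. Rhag was found in 36 of 48 libraries, Ermap in 33, Add2 in 31, Rhd in 29 and Kel in 28. Cldn13 was found in 18, Ank1 in 17 and Slc4a1 in 1. The map of the genes by library shows these as bands of differing completeness. When every library was thinned to 200000 counts, the numbers were 36, 33, 31, 29, 29, 19, 19 and 2 in the same order. Over the 36 libraries without granulocyte and monocyte markers they were 33, 32, 30, 28, 24, 18, 17 and 1. All cells were taken at 1 time, so the order is one of how many cells held a transcript and not of observed time.

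**Figure D1:**
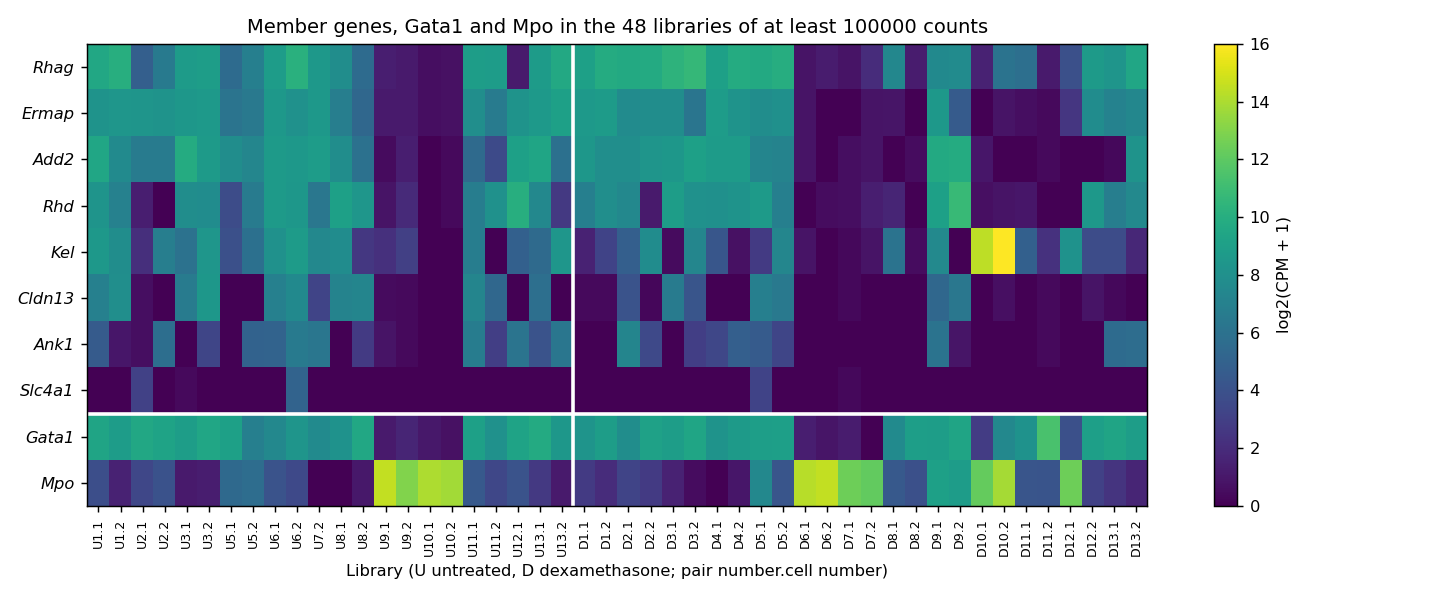
Levels of the 8 genes, with Gata1 and Mpo below them, as log2(CPM + 1) by colour in the 48 libraries of at least 100000 counts; the vertical white line parts untreated (U) from dexamethasone (D) cells. Libraries high in Mpo are dark for most of the 8 genes, and Kel is brightest in both cells of dexamethasone pair 10.

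Some of the sets of cells lay within others. All 18 libraries with Cldn13 also had Rhag, Rhd, Ermap and Add2, and 13 of them had Kel. All 29 with Rhd, all 31 with Add2 and all 17 with Ank1 had Ermap. Ermap was found in 32 of the 36 libraries without granulocyte and monocyte markers, so much overlap with it would arise from its frequency alone. Cldn13 and Ank1, the less often found genes, were together in 8 libraries, with 10 holding Cldn13 alone of these 2 and 9 Ank1 alone. Whether any overlap differed from that of unlinked genes was not tested. Every library with any of the genes other than Kel also had Gata1 and Klf1, the erythroid transcription factor genes. Kel was the exception in 1 library, dexamethasone pair 10 cell 1. Of the 38 libraries with at least 1 of the genes, 18 followed the order Rhag, Ermap, Add2, Rhd, Kel, Cldn13, Ank1, Slc4a1 without a gap. At least 5 of the genes were found in 29 libraries.

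A few cells with Gata1 stood outside this pattern. Gata1 was found without Ermap in 6 libraries from 4 pairs, and all 6 were among the 21 dexamethasone libraries with Gata1. The 18 untreated libraries with Gata1 all had Ermap. These are counts of cells that share founders, and the difference between treatments was not tested. Of the 4 pairs, 10, 11 and 12 lay in plate column 7 of the labels, which held only dexamethasone pairs. In dexamethasone pair 11 cell 2, Gata1 was at 2732 CPM and Klf1 at 1321 CPM, the highest Gata1 level of the series, yet Rhag was at 1.27 CPM and Rhd at 0. Its sister had 55.4 CPM of Rhag and 0.478 CPM of Ermap. Both daughters of dexamethasone pair 8 had Gata1, at 201 and 495 CPM, with Ermap at 0.868 and 0 CPM. In them 4 and 3 of 10 megakaryocyte markers were found. Cells with Ermap held such markers too. At least 3 were found in 8 libraries, among them untreated pair 5, with 5 and 4 markers and Ermap at 69.4 and 86.4 CPM. The other 2 of the 6, dexamethasone pair 10 cell 2 and pair 12 cell 1, held 7 and 4 granulocyte and monocyte markers. The part of those markers in the absence of Ermap was not tested. Pair 12 cell 1 had only 210383 counts in all. Gata1 and Rhag were each at 14.3 CPM there, which was 3 counts, and Ermap had 1 count. Gata1 and Ermap were therefore not clearly separated in that cell. One untreated cell, pair 12 cell 1, had Rhd at 1041 CPM and Ermap at 298 CPM with Rhag at only 1.19 CPM.

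Levels of different genes were compared only per kilobase of annotated exon, over the libraries where a gene was found, on GRCm38 with the GENCODE M21 annotation. Coverage along each transcript is unknown, and an uneven one would shift these values. The 10 CPM threshold also sets a floor per kilobase that is lower for longer genes. Exon lengths ran from 1067 bases for Cldn13 to 13527 for Ank1, so the threshold by itself places short genes higher and long ones lower. The mean log2(CPM per kb) was 7.20 ± 1.30 (SD, n = 29 libraries) for Rhd and 7.14 ± 1.72 (n = 36) for Rhag. It was 6.41 ± 1.19 (n = 18) for Cldn13, 5.69 ± 2.80 (n = 28) for Kel, 5.35 ± 1.07 (n = 33) for Ermap and 4.64 ± 1.43 (n = 31) for Add2. Neighbours in that order differed by less than their SD. The Kel value includes both cells of dexamethasone pair 10, up to 23996 CPM per kb. Over the 36 libraries without granulocyte and monocyte markers, which leave that pair out, the median where found was 49.1 CPM per kb for Kel and 53.4 for Ermap. Ank1 was lowest at 1.75 ± 1.03 (n = 17), below Add2 by more than either SD, and the single Slc4a1 library stood at 2.79.

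Rhag (ENSMUSG00000023926, chr17:40811126-40840754, plus strand) ranged in untreated libraries from 0.508 through a median of 301 to 1131 CPM, and with dexamethasone from 0.786 through 266 to 1611 CPM. It had at least 1 count in all 48 libraries. The highest values were both daughters of dexamethasone pair 3, at 1274 and 1611 CPM, and the lowest were cells with high Mpo in both groups, so the groups overlapped over nearly their whole range.

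Rhd (ENSMUSG00000028825, chr4:134864536-134896172, plus strand), the Rh blood group protein gene, ranged from 0 through 120 to 1041 CPM untreated and from 0 through 116 to 1752 CPM with dexamethasone. It was found with Rhag, its partner in the Rh complex, in 28 of its 29 libraries, whereas 8 libraries had Rhag without Rhd. Its highest cell was dexamethasone pair 9 cell 2, whose sister held 547 CPM.

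Ermap (ENSMUSG00000028644, chr4:119175457-119190011, minus strand) ranged from 0.508 through 283 to 546 CPM untreated and from 0 through 104 to 468 CPM with dexamethasone. It was found in 18 of 22 untreated and 15 of 26 dexamethasone libraries. By pair, at least 1 daughter held it in 8 of 10 untreated and 8 of 13 dexamethasone pairs.

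Kel (ENSMUSG00000029866, chr6:41686330-41704339, minus strand) ranged from 0 through 61.1 to 439 CPM untreated. With dexamethasone it ranged from 0 through 10.2 to 66541 CPM, the top set by pair 10, described below. Xk, the gene of its partner protein, was found in 18 libraries, 16 of them with Kel, and 12 libraries had Kel without Xk. Gm37527, a predicted transcript that overlaps Kel on the same strand, drew 339 counts against 326683 for Kel.

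Cldn13 (ENSMUSG00000008843, chr5:134914249-134915526, minus strand) ranged from 0 through 24.2 to 349 CPM untreated and from 0 through 0.275 to 117 CPM with dexamethasone. It was found in 11 of 22 untreated and 7 of 26 dexamethasone libraries. By pair, at least 1 daughter held it in 6 of 10 untreated and 4 of 13 dexamethasone pairs. Its highest cell was untreated pair 3 cell 2.

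Slc4a1 (ENSMUSG00000006574, chr11:102348824-102366203, minus strand) had a median of 0 CPM in both groups. The only library above 10 CPM was untreated pair 6 cell 2, at 33.9 CPM, the 1 cell in which all 8 genes were found. It had at least 1 count in 5 libraries. A count of 0 allows up to 3 counts, or 0.535 to 14.3 CPM depending on depth (counting error only), so band 3 transcripts below that were not detectable. With dexamethasone the highest library, pair 5 cell 1, held 26 counts or 8.17 CPM. At the 10 CPM threshold 0 of 13 dexamethasone pairs held it, with an exact Clopper-Pearson 95% upper limit of 24.7% for pairs above that threshold, and 1 of 10 untreated pairs did.

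Ank1 (ENSMUSG00000031543, chr8:22974844-23150497, plus strand) ranged from 0 through 7.84 to 105 CPM untreated and from 0 through 0 to 153 CPM with dexamethasone. It was found in 10 of 22 and 7 of 26 libraries. By pair, at least 1 daughter held it in 6 of 10 untreated and 5 of 13 dexamethasone pairs. Gm15815, a pseudogene on the same strand within it, drew 109 counts against 2969 for Ank1.

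Add2 (ENSMUSG00000030000, chr6:86028681-86124409, plus strand) ranged from 0 through 182 to 922 CPM untreated and from 0 through 70.6 to 918 CPM with dexamethasone. The highest cells were untreated pair 3 cell 1 and dexamethasone pair 9 cell 2. It was found in 18 of 22 untreated and 13 of 26 dexamethasone libraries. By pair, at least 1 daughter held it in 8 of 10 untreated and 7 of 13 dexamethasone pairs.

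Across all 48 libraries the genes other than Kel and Slc4a1 were positively correlated with one another, at Spearman rho from 0.27 (Cldn13 with Ank1) upward. The closest pair was Ermap with Add2, at rho 0.70 and Pearson r of 0.85 on log2(CPM + 1), followed by Rhd with Add2 at rho 0.69 and r 0.76. Rhag with Ermap gave rho 0.65 and r 0.82. Kel had rho from -0.03 with Slc4a1 and 0.14 with Rhd to 0.39 with Ermap. These are descriptions over cells that share founders, a sequencing lane and a split into cells with and without granulocyte and monocyte markers. Over the 36 libraries without those markers most values were lower. The Spearman correlation was then 0.48 for Ermap with Add2, 0.52 for Rhd with Add2 and 0.32 for Rhag with Ermap, but 0.11 for Rhd with Ermap, 0.14 for Rhag with Ank1, 0.02 for Rhd with Ank1 and -0.006 for Cldn13 with Ank1. Kel had rho of 0.39 with Ank1, 0.36 with Ermap, 0.33 with Cldn13, 0.22 with Rhag and -0.05 with Rhd there.

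Among 8080 genes, leaving out predicted genes without a name, Rhag was most alike Cd24a (rho 0.79), Atp7b (0.75) and Pklr (0.74) over the 48 libraries. Cd24a encodes CD24, one of the sorting antigens, and Pklr the red cell pyruvate kinase. Genes most alike Rhd included Rfesd (0.80) and Slc39a8 (0.76), a metal ion transporter gene. Ermap was closest to Lmna (0.72), Fads2 (0.71) and Snupn (0.70), and Add2 to Pklr (0.75), Lmna (0.73) and Mllt3 (0.71). Cldn13 was closest to Cox6b2 (0.75), Tbc1d24 (0.69) and Rpl10-ps3 (0.68), and Ank1 to Ogg1 (0.70), Stx2 (0.67) and Sapcd2 (0.63). The leaders for Kel were C1qtnf12 and Cbr1 (0.60 each) and Coq9 (0.54). Without the 12 marked libraries the leading gene stayed in place for Kel (C1qtnf12, 0.65), while Cldn13 was led by Tbc1d24 (0.80), Rhag by Susd6 (0.73) and Ank1 by Ddx6 (0.61).

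Sister cells were next compared, to ask whether both held the same membrane genes. Of 23 pairs, Rhag was found in both daughters in 16, in 1 daughter in 3 and in neither in 4. For Ermap the split was 15, 1 and 7, for Add2 14, 1 and 8, for Rhd 12, 3 and 8, and for Cldn13 8, 2 and 13. Kel and Ank1 were often found in a single daughter. Kel was in both daughters of 8 pairs, in 1 daughter of 10 and in neither of 5, and Ank1 in both of 4, in 1 of 7 and in neither of 12. By treatment, pairs with a single daughter numbered 3 of 10 untreated and 7 of 13 dexamethasone pairs for Kel, and 4 of 10 and 3 of 13 for Ank1. In 16 of the pairs neither daughter held 3 or more granulocyte and monocyte markers. There both, 1 and neither daughter held Rhag in 14, 2 and 0, Ermap in 14, 0 and 2, and Add2 in 13, 1 and 2. The split was 11, 2 and 3 for Rhd and 8, 2 and 6 for Cldn13, against 5, 10 and 1 for Kel and 4, 6 and 6 for Ank1.

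**Figure D2:**
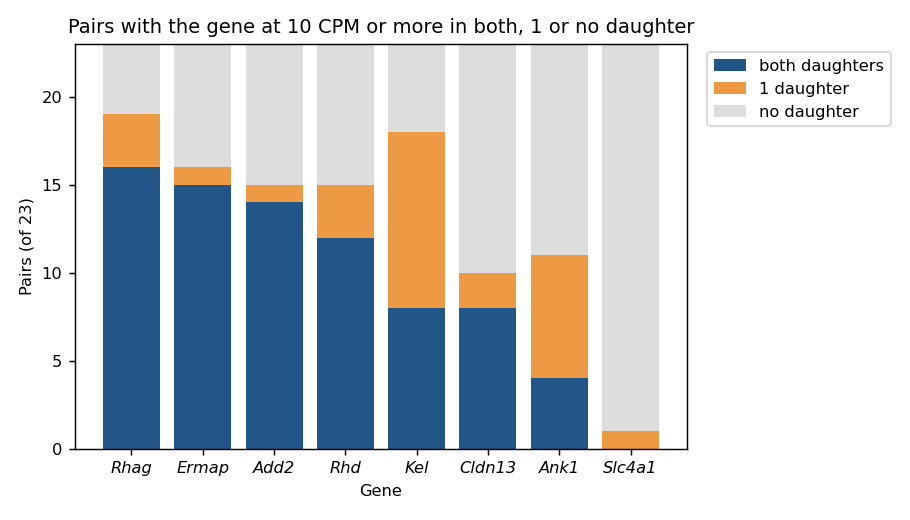
Number of the 23 pairs (vertical axis) in which each gene was at 10 CPM or more in both daughters, in 1 or in none. Kel, with 10 pairs, has the tallest band for a single daughter, and Ermap, Add2 and Slc4a1, with 1 pair each, the shortest.

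In the 10 pairs with Kel in a single daughter, the higher cell held 12.4 to 216 CPM and the lower 0 to 5.65 CPM. Untreated pair 11 held 109 and 0 CPM, dexamethasone pair 9 held 184 and 0 CPM, and dexamethasone pair 3 held 0.379 and 158 CPM. The same 3 pairs had Rhag in both daughters. Single large gaps also occurred for other genes: Add2 was at 0.282 and 293 CPM in dexamethasone pair 13, and Rhd at 176 and 5.17 CPM in untreated pair 13.

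On the log2(CPM + 1) scale the mean absolute difference between sisters was 0.89 ± 1.27 (SD, n = 23 pairs) for Ermap, against 3.84 between cells of different founders under the same treatment. It was 0.97 ± 1.42 against 3.11 for Cldn13 and 1.09 ± 1.69 against 4.34 for Add2. For Rhag it was 1.46 ± 1.80 against 4.00, for Rhd 1.71 ± 2.11 against 4.28 and for Ank1 1.87 ± 1.90 against 2.75. For Slc4a1, mostly at 0, it was 0.53 ± 1.35 against 0.47. Over all 23 pairs Kel differed most between sisters, by 3.08 ± 2.24 against 4.22. In the 10 untreated pairs alone Ank1 did, by 2.79 ± 1.77 against 2.95, with Kel at 2.61 ± 2.27 against 3.65. Without the 7 pairs holding granulocyte and monocyte markers, Kel sisters differed by 3.79 ± 2.17 (n = 16 pairs) and cells of other founders by 3.03, the reverse order. The others kept the smaller value between sisters: 0.77 against 2.62 for Ermap, 1.32 against 2.46 for Rhag, 1.33 against 3.42 for Add2, 1.27 against 3.20 for Cldn13, 1.56 against 3.64 for Rhd and 2.34 against 2.96 for Ank1. Slc4a1 stood at 0.74 against 0.64.

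**Figure D3:**
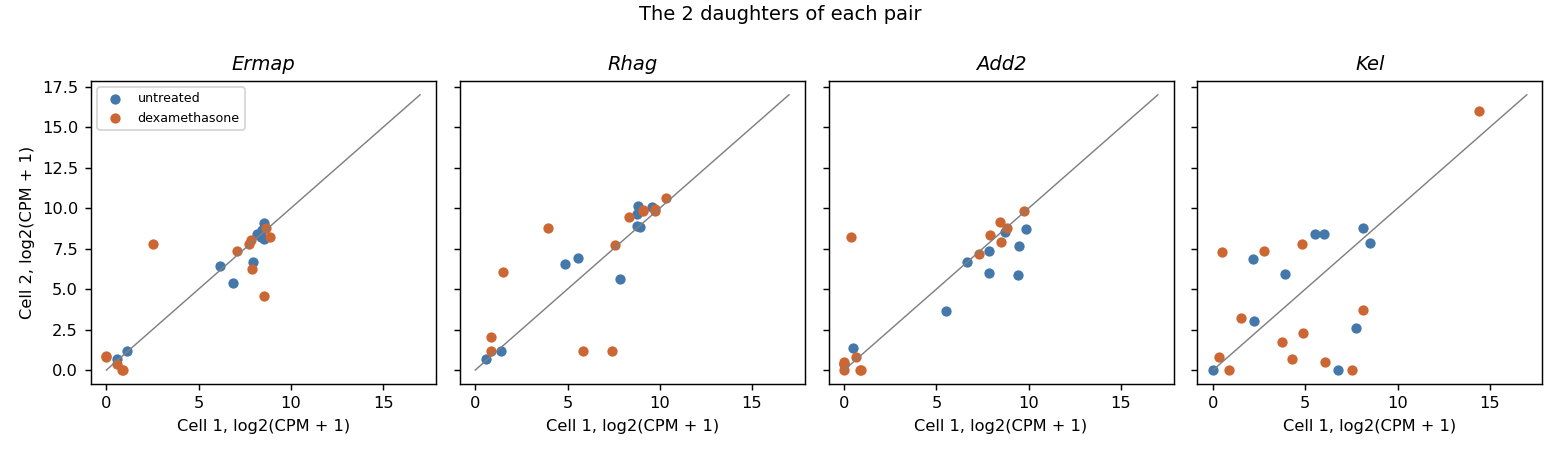
Cell 2 against cell 1 of each pair, both axes in log2(CPM + 1), for Ermap, Rhag, Add2 and Kel in the 23 pairs; the line marks equal levels. Most Ermap pairs lie near the line or near the origin (18 of 23 differ by under 1), with dexamethasone pairs 9 and 12 among the exceptions. Many Kel pairs spread away from the line, and dexamethasone pair 10 is alone at the upper right.

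An edgeR quasi-likelihood test of whether founders differed more than sisters called 276 of 8080 genes (3.42%) as shared at an adjusted p under 0.05. Of the 8 genes, 7 passed its filter and 6 were called. Ermap had F = 6.89 and Add2 F = 7.06, each with edgeR adjusted p = 0.000116. The edgeR adjusted p was 0.00138 for Rhd, 0.00192 for Kel, 0.00269 for Rhag and 0.0260 for Cldn13. Ank1 was not called (F = 2.11, edgeR adjusted p = 0.218), and Slc4a1 was too low to enter. With pairs compared within plate columns, edgeR called 82 genes (1.01%) and 4 of the 7, and the adjusted p of Kel and Cldn13 was 0.160 and 0.0637.

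Without the 3 untreated pairs with a library under 100000 counts, edgeR called 270 genes (3.34%) and the number of the 7 called was still 6. Without those pairs and the pairs with granulocyte and monocyte markers, edgeR called 35 of 8080 genes (0.433%) and 1 of the 7, Ermap (F = 7.12, edgeR adjusted p = 0.0222). The edgeR adjusted p was then 0.162 for Add2, 0.198 for Rhd, 0.266 for Cldn13 and 0.420 for Rhag. Limma on log2(CPM + 1) of the same pairs called 224 genes (2.77%) and 5 of the 7: Ermap, Rhd, Add2, Cldn13 and Rhag, with limma adjusted p from 0.000151 to 0.0398. The call for Kel depended on 1 pair: without dexamethasone pair 10 its edgeR adjusted p was 0.326 (F = 1.54), among 174 genes called (2.15%).

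In dexamethasone pair 10, Kel made up 2.20% of all counts of cell 1 and 6.65% of cell 2, and it was the most abundant gene of both. The levels were 22046 and 66541 CPM, from 72262 and 243217 counts, which together were 96.6% of all Kel counts in the series. The next highest library, untreated pair 6 cell 2, held 439 CPM, so the lower sister was 50.3-fold above it. The neighbours of Kel on chromosome 6 were at or near 0: Trpv5, Llcfc1 and Pip were at 0 in both cells, and Olfr459 was at 0.915 and 5.47 CPM.

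The other membrane genes were low or at 0 in cell 1 of this pair, and only some were found in cell 2. Rhag was at 1.83 and 66.8 CPM, Rhd at 0.610 and 0.821 CPM, and Xk at 0 and 12.6 CPM. Of 7 erythroid markers 1 was found in cell 1 and 6 in cell 2, with Gata1 at 6.10 and 176 CPM. Of 15 granulocyte and monocyte markers 5 and 7 were found, with Mpo at 4843 and 14623 CPM and Prtn3, a neutrophil protease gene, at 1824 and 578 CPM. Leaving out predicted genes without a name, Ptn (550 and 73.9 CPM), Ccl5 (728 and 70.3 CPM), Cpe (194 and 43.0 CPM) and Sparc (198 and 53.9 CPM) were the genes beside Kel that most exceeded every other pair. Each of these 4, a growth factor, a chemokine, a peptidase and a matrix protein gene, was at most 0.396 CPM in the other 46 libraries. The labels describe nothing that sets this pair apart, and the origin of its Kel level was not tested.

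Kel in the other libraries was then compared by index sequence. Per the labels each library carried a combination of 2 indexes, and 18 of the other 46 libraries shared 1 index with a cell of pair 10. In those 18 Kel was at least 1.89 CPM and 0 libraries were below 1 CPM, whereas 11 of the 28 sharing none were below 1 CPM and 5 had no Kel count. Among libraries with granulocyte and monocyte markers, Kel was 3.56 to 280 CPM in the 4 that shared an index and at most 0.786 CPM in the 6 that did not. Kel was found in 11 of 18 and 15 of 28 libraries, respectively. In the 13 pairs where neither daughter shared an index, Kel was in both daughters of 3, in 1 daughter of 7 and in neither of 3. Whether index sharing contributed Kel counts was not tested.

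**Figure D4:**
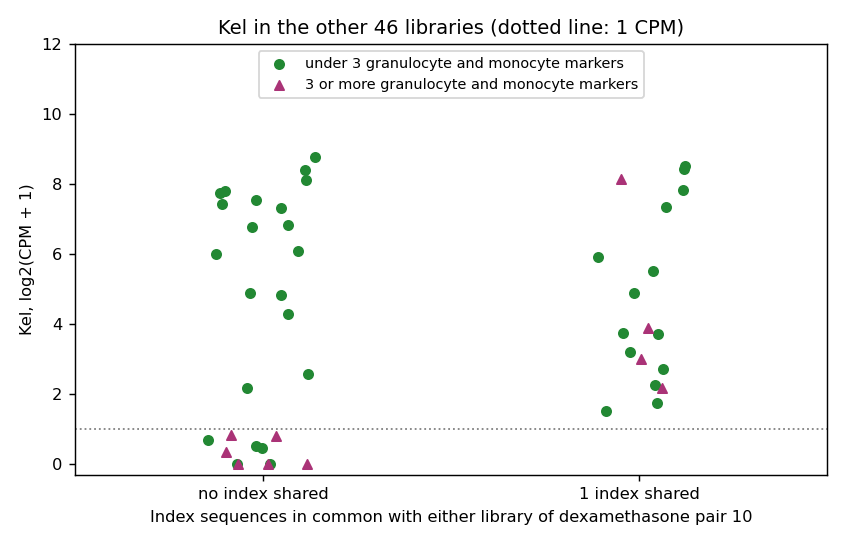
Kel as log2(CPM + 1) in the 46 libraries outside dexamethasone pair 10, by whether a library shares an index sequence with that pair; triangles mark libraries with at least 3 granulocyte and monocyte markers. Of those without a shared index, 11 lie below the dotted line at 1 CPM, and 0 of those with one.

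The remaining comparison asked whether dexamethasone changed the genes, with counts of both daughters summed per pair. Of the 8 genes, 6 passed the expression filter, and 0 were called by edgeR, as were 0 of the 6429 genes tested (0%). At an unadjusted p under 0.05 there were 102 genes, Kel among them, and on the same genes limma called 0 and DESeq2 called 2 (0.0311%), neither of them one of the 8. The median log2 fold change was -0.31 over the 6 genes and 0.06 over all 6429.

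Pair means of log2(CPM + 1) were 6.74 ± 3.01 untreated and 6.61 ± 3.41 with dexamethasone for Rhag (SD, n = 13 pairs each here and below). They were 5.53 ± 3.17 and 4.68 ± 3.64 for Rhd, and 6.40 ± 2.74 and 4.70 ± 3.62 for Ermap. For Add2 they were 6.61 ± 2.94 and 4.40 ± 4.11, for Ank1 2.63 ± 1.89 and 1.87 ± 2.29, and for Cldn13 3.41 ± 3.27 and 1.68 ± 2.53. All 8 differences had the negative sign on this scale, and all were smaller than the SD of either group. The plot of pair means shows pairs of both groups across nearly the whole range of each gene but Kel and Slc4a1. For Kel the untreated pairs reached 8.45, and dexamethasone pair 10 stood alone at 15.2. Slc4a1 was at 0 in most pairs.

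**Figure D5:**
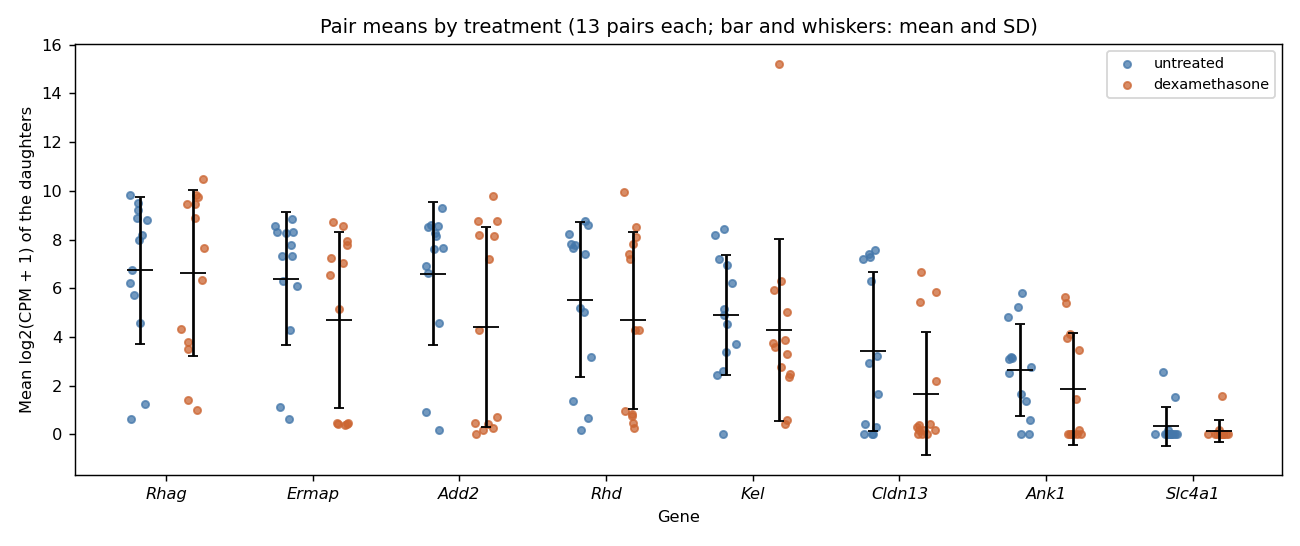
Mean log2(CPM + 1) of the daughters for each of 13 untreated and 13 dexamethasone pairs, by gene, with group mean and SD as bar and whiskers. The groups overlap for every gene, and a single dexamethasone pair lies far above the others for Kel.

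On summed counts the edgeR log2 fold change was 0.47 ± 0.85 (SE) for Rhag, -0.14 ± 1.00 for Rhd, -0.51 ± 0.91 for Ermap, -0.48 ± 1.03 for Add2 and -0.996 ± 1.18 for Ank1, each with adjusted p = 1.00. Standard errors near 1 leave changes of several fold in either direction within the error. Cldn13 and Slc4a1 did not pass the filter. With no filter edgeR called 2180 of 18871 genes (11.6%), Kel among them (adjusted p = 0.0423), and the Cldn13 estimate was -1.90 ± 1.37 (edgeR adjusted p = 0.633). Granulocyte and monocyte markers summed to 0.278 to 41463 CPM in untreated libraries (median 14.97) and 0 to 26567 CPM with dexamethasone (median 64.5), and their part in these values was not tested. Pairs in which a library held at least 3 of these markers were then left out, with the 3 shallow pairs. Cldn13 pair means were 5.57 ± 2.84 (n = 7) untreated and 2.33 ± 2.84 (n = 9) with dexamethasone. On summed counts of those pairs the edgeR estimate for Cldn13 was -2.24 ± 1.44 (SE, edgeR unadjusted p = 0.139), and it was not called.

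Kel shows how far 1 pair moved a value. Its edgeR log2 fold change was 5.03 ± 1.52 (SE, unadjusted p = 0.00247, adjusted p = 1.00) with all pairs and -1.46 without dexamethasone pair 10. The mean of pair means was 4.90 ± 2.48 untreated and 4.28 ± 3.73 with dexamethasone. Plate positions in the labels give a library column for each pair, grouped here into columns 1 to 4 and 5 to 7. Each set held both treatments, but of single columns only 6 did. Columns 1, 2 and 5 held only untreated pairs and columns 3, 4 and 7 only dexamethasone pairs. Effects of single columns therefore cannot be told apart from treatment. Dexamethasone minus untreated was -3.00 in columns 1 to 4 (n = 8 pairs each) and 3.17 in columns 5 to 7 (n = 5 each), or 0.93 there without pair 10. With these column sets as a covariate and all pairs kept, the edgeR log2 fold change was 0.06 ± 1.99 (SE, adjusted p = 1.00). The shallow pairs and those with granulocyte and monocyte markers, pair 10 among them, were then left out. The mean of pair means was 6.27 ± 1.93 (n = 7) untreated and 3.72 ± 1.27 (n = 9) with dexamethasone. On summed counts edgeR gave -1.85 (adjusted p = 1.00).

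Other genes of the red cell membrane were read from a list of 31. Of the 21 that passed the filter, edgeR estimates with dexamethasone were above 0 for 12 and below 0 for 9, 0 were called, and the median was 0.05. In the test of sharing 3 of 25 were called, Actb and Smim1 among them, beside 3.42% of all genes. Without the shallow pairs and those with granulocyte and monocyte markers 0 of 25 were called, beside 0.433% of all genes. In the spectrin skeleton group Actb, cytoplasmic actin, was found in all 48 libraries, Tmod3 in 38, Epb41 in 36, Add1 in 33, and Dmtn, dematin, in 9. The spectrin gene Sptb was found in 23 libraries. Of the band 3 and ankyrin complex, Cd47 was found in 48 and Gypc in 32, but Epb42, protein 4.2, in 4, close to Slc4a1, and Icam4 in 0. Among transporters Slc29a1, a nucleoside carrier, was found in 47, Kcnn4 in 40, Abcg2 in 35, Slc14a1, the Kidd urea transporter, in 32 and Aqp1 in 13. Of the other blood group carriers Bsg was found in 48, Smim1 in 40, Cd44 in 34 and Art4 in 4, while Bcam, Ackr1 and Sema7a were at 0 CPM in every library.

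Genes of red cell formation outside the membrane gave a scale for these numbers. Of 8 erythroid regulators Lmo2 was found in 43, Gata1 and Klf1 in 39 each and Gfi1b in 36 libraries. Of 8 heme synthesis genes Alad was found in 45 and Fech in 43, but Alas2, the erythroid first step, in 11. Adult globin Hba-a1 was found in 36 libraries and Hbb-bs in 39, with the split of reads between near-identical globin copies uncertain. In the dexamethasone test 0 of the 8 regulators, 7 heme genes and 4 globins that passed the filter were called by edgeR. In the test of sharing edgeR called 2 of 8 regulators, 1 of 8 heme genes and 2 of 4 globins (3.42% of all genes). Without the shallow pairs and those with granulocyte and monocyte markers (0.433% of all genes) it called 0 regulators, 1 heme gene, Alad (edgeR adjusted p = 0.00692), and the globins Hba-a1 and Hbb-bs (edgeR adjusted p = 0.00149 and 0.0240). Alad had not been called with all pairs (edgeR adjusted p = 0.104).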

How the data were processed

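The authors deposited raw whole-number counts of reads per gene, 1 table per treatment, without normalization. The submitters' processing notes name STAR 2.4, featureCounts and GRCm38; the handling of strand and shared reads is not stated there; reads of overlapping genes cannot be told apart. Each of the 52 columns was matched to its sample by name, and the 48 libraries of at least 100000 counts held 210383 or more. Treatments were compared with edgeR 4.0.16 (R 4.3.3) on counts summed per pair: TMM, filterByExpr (minimum count 10), quasi-likelihood F test, Benjamini-Hochberg over all genes tested. Sharing by daughters was tested with 1 term per pair within treatment on genes reaching 5 counts in 10 or more libraries. Limma 3.58.1 and DESeq2 1.42.0 were alternatives. Both tests were tested on simulated data. CPM used library totals. Named were all 8 genes, up to 4 genes per list, the 3 most correlated genes, and for the highest Kel pair its neighbours and the 5 genes exceeding other pairs most. The rankings by correlation and by excess over other pairs left out predicted genes without a name. Further names were chosen after their values were seen. Genes and lists were chosen with earlier results of these data known. Fits without dexamethasone pair 10 and limma without marked or shallow pairs were added after seeing the data. Coordinates are from GENCODE M21, promoters from RefSeq GRCm38.p6. Some genes that this rule names are not reported here.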

Additional observations from a re-analysis of the deposited data

How the results depend on the processing

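None of the 8 genes was called for dexamethasone under 12 of 13 settings or when any single pair was left out. With no expression filter 1 was, Kel (4.88, edgeR adjusted p = 0.0423), among 2180 of 18871 genes. All-gene calls were 6 with at least 10 counts in 5 pairs, 2 with DESeq2, and 1 without shallow and marked pairs. The log2 fold change of Rhag turned to -0.12 with limma and -0.23 with limma without shallow and marked pairs. That of Rhd turned to 0.38 without shallow pairs, 0.21 without shallow and marked pairs and 0.54 without shallow pairs and dexamethasone pair 10; leaving out each pair gave -0.67 to 0.43, the top without untreated pair 12. That of Kel turned to -1.46 with DESeq2, -0.62 with limma, -1.85 without shallow and marked pairs, -1.54 with limma without dexamethasone pair 10, -1.56 without shallow pairs and that pair, -2.55 with limma without shallow and marked pairs, and -1.83 with limma, plate columns and without shallow pairs and pair 10; leaving out each pair gave -1.46 to 5.33. With the sets of plate columns as covariate and all pairs kept, Kel moved from 5.03 to 0.06. Removing pair 10 alone turned Kel. Pair 10 was itself a marked pair, so every setting without marked pairs or without pair 10 left it out. DESeq2 and limma on all pairs were given that pair, and why Kel turned there was not tested. The cause of the changes for Rhag and Rhd was not tested either. With the pair number as a replicate block Kel was at -1.43 and 0 of the genes were called. Pair numbers do not join the treatments: same-numbered pairs correlated by -0.12 to 0.18 (mean 0.03, 2 of 13 over 0.1), and 1 of 13 untreated pairs was closest to its own number. Sharing calls fell to 1 of the genes without shallow and marked pairs, where fewer samples entered, and were 4 to 6 otherwise. All-gene sharing calls were 35 there, 82 with pairs within plate column (where Kel and Cldn13 lost their call, adjusted p = 0.160 and 0.0637), 174 without dexamethasone pair 10, 493 with limma and 650 with limma without shallow pairs. Differences between sisters stayed below those between founders with a pseudocount of 10 for every gene but Slc4a1 (0.17 against 0.15). Kel was found in 43 libraries by 1 count and in 20 at 50 CPM, Ank1 in 29 and 9. Standard errors near 1 limit the dexamethasone comparison.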
